A study of Mus musculus with 7 samples.

Results

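The transcription factor genes Runx2, Sp7, Dlx3 and Dlx5 were examined in sorted mouse osteoblasts, as 4 of the 23725 genes counted. They were taken by symbol, through their Entrez gene IDs, as factors of the osteoblast lineage. Osteoblasts are the cells that secrete and mineralise bone matrix. The study asked what a lung tumor does to osteoblasts in distant bone. All 7 mice were male KP-Ocn-GFP animals of the C57BL/6 background, which carry p53Flox/Flox alleles among their engineered alleles and a GFP reporter driven by the osteocalcin promoter. In 4 of them Cre recombinase, delivered to the airways by adenovirus, had started lung tumors 14 weeks before death. The other 3 carried the same alleles and were tumor-free, and the sources used here do not say what they received in place of the virus. Of the tumor-bearing mice, replicates 1 to 3 were 31 weeks old and replicate 4 was 23 weeks old. Of the tumor-free mice, replicates 1 and 2 were 31 weeks old and replicate 3 was 23 weeks old. From each mouse 2000 GFP-positive cells that lacked CD45, CD31 and Ter119, which mark white blood cells, endothelium and red cell precursors, were sorted from digested bone pooled with lineage-depleted marrow of all bones. Because the reporter is itself active in mature osteoblasts, the sort selected cells by a gene downstream of these factors.

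Runx2 is a RUNT-domain factor that commits mesenchymal progenitors to the osteoblast fate, and mice without it form no mineralised bone. Sp7, also called osterix, is a zinc finger factor that acts downstream of Runx2 and is likewise needed for osteoblasts to form. Dlx3 and Dlx5 are homeodomain factors of the distal-less family. Dlx5 is induced by bone morphogenetic proteins and can activate both Runx2 and Sp7, and in rodent osteoblast cultures Dlx3 and Dlx5 occupy the osteocalcin promoter as the gene is switched on.

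Runx2 (gene ID 12393) lies at chr17:44495987-44814797 on the minus strand of mm10, and its exons together cover 8837 bases. Sp7 (170574) lies at chr15:102356603-102367035 on the minus strand, with 3398 exon bases. Dlx3 (13393) lies at chr11:95120117-95125296 on the plus strand, with 2607 exon bases. Dlx5 (13395) lies at chr6:6877801-6882068 on the minus strand, with 2263 exon bases. Runx2 is known to bind its own promoter, and it is the only member with a promoter among the RefSeq sequences used here. That window runs from 250 bases before to 50 bases after an annotated transcript start at base 44814627 (chr17:44814578-44814877, minus strand, GRCm38.p6, which is the mm10 assembly). The RUNX core motif ACCACA, searched on both strands (reverse complement TGTGGT), occurred 3 times on the strand of the gene and 0 times on the other. The 30 bases around them are shown 5′ to 3′ because they hold every match in the window, with the motif in capitals.

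Runx2, upstream of the start (chr17:44814690-44814719): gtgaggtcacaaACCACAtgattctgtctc

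Runx2, downstream of the start (chr17:44814583-44814612): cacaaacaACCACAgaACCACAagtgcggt

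Counted from the transcript start, the motifs began at -80, 23 and 31, so that the last 2 lie side by side inside the transcribed part. At least 1 such motif was present in 16.8% of 32851 promoters of the same 300-base length, and 0.183% held at least as many as Runx2. A match of letters is a description and not a measured binding site.

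The 4 genes differed most in how often they were counted at all. Runx2 was counted in every library and Dlx3 in every library, whereas Dlx5 was at 0 in 1 library and Sp7 at 0 in 4. Over the 7 libraries together the 4 factors had 235 counts, of which Runx2 held 173, Dlx3 41, Dlx5 17 and Sp7 4. Library totals ranged from 77127 to 169774 counts. A gene at 0 could still have stood at up to 3 counts, which is 17.7 to 38.9 CPM (the usual count share, scaled to a fixed library total) before TMM scaling. Intervals and limits cover counting error only and leave out the spread between mice. They take each count as 1 molecule, and the sources do not state whether reads of 1 molecule were collapsed. Chi-squared per degree of freedom against library depth is about 1 for counting error alone. It was 2.74 for Runx2, 1.46 for Dlx3, 0.911 for Dlx5 and 0.685 for Sp7. Among the 13344 genes with at least 1 count, mean CPM placed Runx2 at rank 1324, Dlx3 at 3308, Dlx5 at 4749 and Sp7 at 8658.

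Runx2 had 7, 15, 35 and 34 counts in tumor-bearing replicates 1 to 4 and 35, 23 and 24 counts in tumor-free replicates 1 to 3. Scaled to library size, these were 96.0, 158, 197 and 232 CPM with a tumor and 340.5, 195 and 193 CPM without. Tumor-free replicate 1 was highest, tumor-bearing replicate 1, the shallowest library, was lowest, and the other 5 lay between. The exact Poisson 95% intervals of those outer libraries, 38.6 to 198 CPM and 237 to 474 CPM, did not overlap. Pooled over all libraries, on totals not scaled by TMM, Runx2 stood at 208 CPM (exact Poisson 95% interval 178 to 242).

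Sp7 had 0, 0, 2 and 1 counts in the tumor-bearing replicates and 0, 0 and 1 in the tumor-free ones. The pooled level was 4.82 CPM (exact Poisson 95% interval 1.31 to 12.3). In the 4 libraries at 0 the limit of 3 counts was, on the scaled library size, 41.1 CPM (tumor-bearing replicate 1), 31.5 CPM (tumor-bearing replicate 2), 29.2 CPM (tumor-free replicate 1) and 25.5 CPM (tumor-free replicate 2).

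Dlx3 had 1, 5, 15 and 4 counts in tumor-bearing replicates 1 to 4 and 5, 5 and 6 counts in tumor-free replicates 1 to 3. In CPM these were 13.7, 52.6, 84.3 and 27.3 with a tumor and 48.6, 42.4 and 48.4 without. The tumor-free libraries lay close together and inside the range of the tumor-bearing ones. The highest library, tumor-bearing replicate 3, was also the deepest, and its interval (47.2 to 139 CPM) overlapped that of the lowest, tumor-bearing replicate 1 (0.347 to 76.4 CPM). The pooled level was 49.4 CPM (35.4 to 67.0).

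Dlx5 had 1, 2, 2 and 5 counts in the tumor-bearing and 0, 4 and 3 counts in the tumor-free replicates. In CPM these were 13.7, 21.0, 11.2 and 34.1 with a tumor and 0, 34.0 and 24.2 without. The library with most Runx2, tumor-free replicate 1, was the library with 0 counts of Dlx5. The pooled level was 20.5 CPM (11.9 to 32.8).

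**Figure D1:**
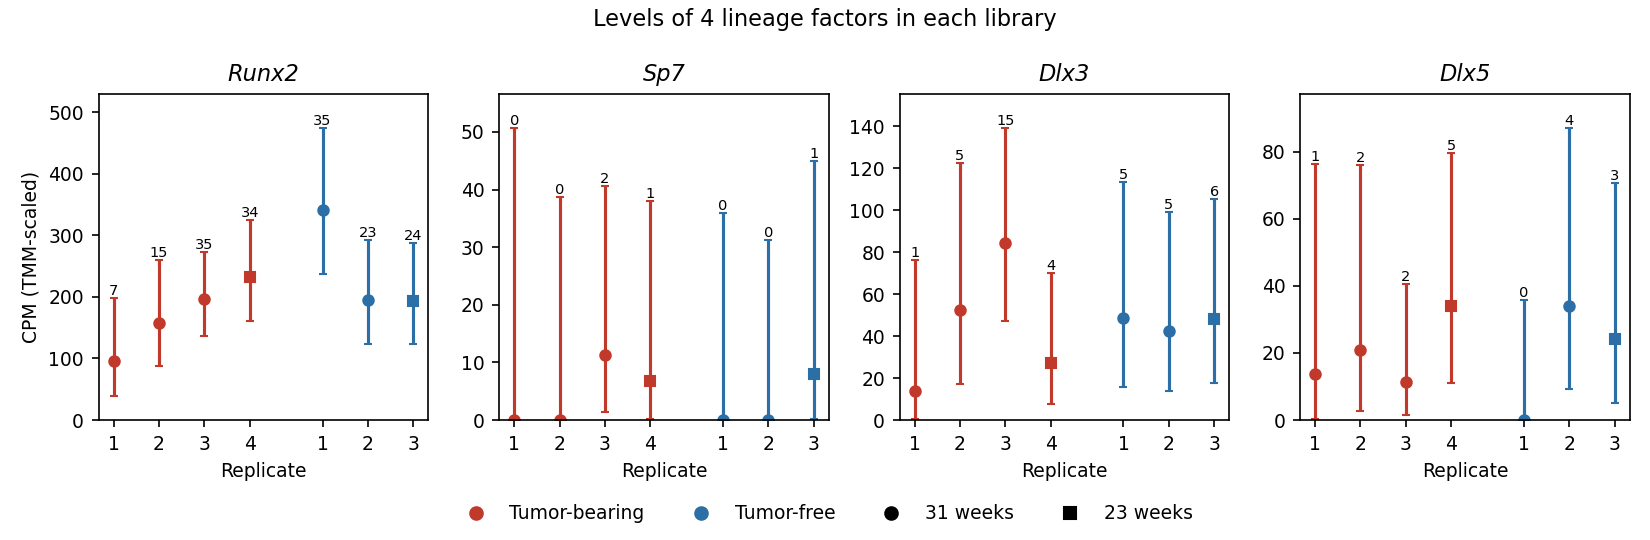
CPM (library sizes scaled by TMM) of Runx2, Sp7, Dlx3 and Dlx5 in each library, with exact Poisson 95% intervals as bars and the raw count printed above each bar; red marks the 4 tumor-bearing and blue the 3 tumor-free mice, circles 31-week and squares 23-week mice. The vertical scales differ between panels. Runx2 ran from 96.0 to 340.5 CPM, while all Sp7 values lay at 0 to 11.2 CPM, and the groups overlapped for each gene.

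Within libraries Runx2 stood above Sp7 and Dlx5, and Dlx3 above Sp7, both per kilobase of exon and in CPM not divided by length. Runx2 stood above Dlx3 in CPM but was not separated from it per kilobase of exon. Both scales are given because libraries of transcript 3′ ends need not give more counts to a longer transcript, and dividing by length then lowers a long gene such as Runx2 relative to a short one such as Dlx3. Per kilobase of exon, the mean level was 22.8 ± 8.44 CPM per kilobase for Runx2, 17.4 ± 8.46 for Dlx3, 8.73 ± 5.50 for Dlx5 and 1.10 ± 1.42 for Sp7 (SD, n = 7 each). Pairs of genes were compared within libraries by two-sided exact sign-flip permutation tests over the 7 libraries, with Benjamini-Hochberg adjustment over the 6 pairs. The smallest p this design allows is 0.0156.

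Runx2 exceeded Sp7 in 7 of 7 libraries, by 21.7 ± 8.51 CPM per kilobase (SD, n = 7; exact permutation adjusted p = 0.0313). It exceeded Dlx5 in 7 of 7 libraries, by 14.1 ± 11.5 CPM per kilobase (SD, n = 7; exact permutation adjusted p = 0.0313). Dlx3 exceeded Sp7 in 7 of 7 libraries, and the level of Sp7 minus that of Dlx3 was -16.3 ± 7.81 CPM per kilobase (SD, n = 7; exact permutation adjusted p = 0.0313). Dlx5 exceeded Sp7 in 6 of 7 libraries, the seventh having 0 counts of both, with a difference of Sp7 minus Dlx5 of -7.63 ± 5.53 CPM per kilobase (SD, n = 7; exact permutation adjusted p = 0.0469).

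Per kilobase of exon, Runx2 was not separated from Dlx3, nor Dlx3 from Dlx5. On that scale Runx2 was higher than Dlx3 in 5 of 7 libraries and lower in 2, tumor-bearing replicates 2 and 3, with a mean difference of 5.43 ± 10.2 CPM per kilobase (SD, n = 7; exact permutation adjusted p = 0.234). Dlx3 was higher than Dlx5 in 5 of 7 libraries, by 8.66 ± 11.4 CPM per kilobase (SD, n = 7; exact permutation adjusted p = 0.1125). In tumor-bearing replicates 1 and 4 Dlx5 was the higher of the pair per kilobase.

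The place of Runx2 against Dlx3 depended on the length scale. Not divided by length, the difference was 156 ± 71.7 CPM and held in 7 of 7 libraries (SD, n = 7; exact permutation adjusted p = 0.0234). Divided by the longest transcript (6463 bases for Runx2, 2607 for Dlx3) in place of all exon bases, it was 13.8 CPM per kilobase (exact permutation adjusted p = 0.0375). Undivided, Dlx5 exceeded Sp7 in 5 of 7 libraries and that pair no longer passed, at -16.0 ± 12.9 CPM for Sp7 minus Dlx5 (SD, n = 7; exact permutation adjusted p = 0.0625). With any of 6 libraries left out the adjusted p of the 4 called pairs was at least 0.0625, since 6 libraries allow no p below 0.0313, and without tumor-free replicate 1 it was 0.0469.

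**Figure D2:**
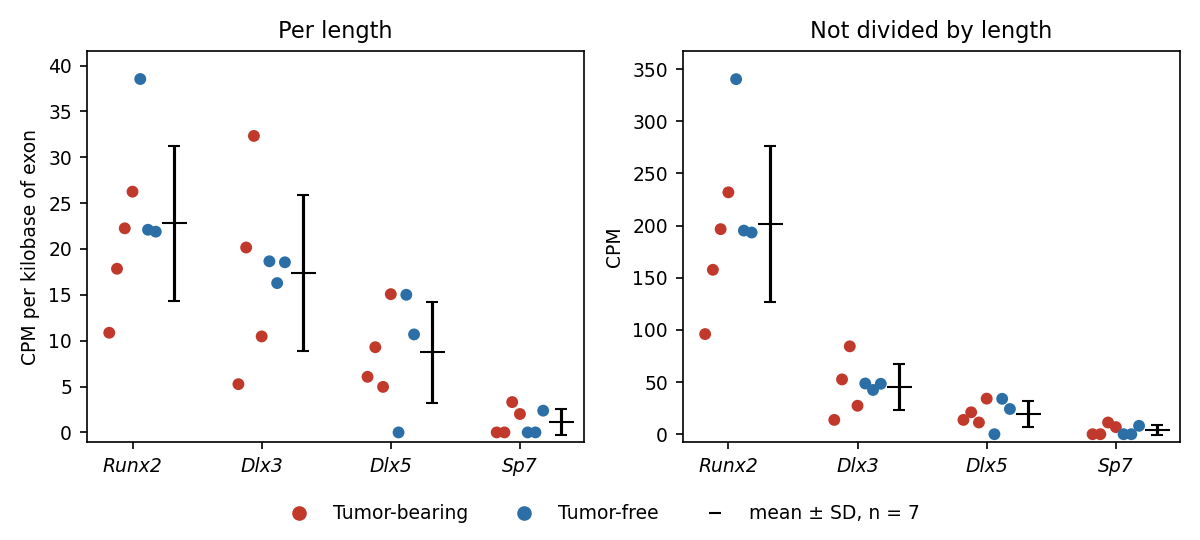
Level of each factor in the 7 libraries, in CPM per kilobase of exon (left) and in CPM not divided by length (right), with red points for tumor-bearing and blue for tumor-free mice and a black bar for the mean ± SD (n = 7). Runx2 (mean 22.8) and Dlx3 (17.4) overlap per kilobase and are apart in CPM, where their means were 202 and 45.3.

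As shares of the 235 counts, Runx2 took 73.6% (exact Clopper-Pearson 95% interval 67.5 to 79.1%), Dlx3 17.4% (12.8 to 22.9%), Dlx5 7.23% (4.27 to 11.3%) and Sp7 1.70% (0.466 to 4.30%). Runx2 took 70.5% (61.9 to 78.2%) of the 129 counts in tumor-bearing mice and 77.4% (68.2 to 84.9%) of the 106 counts in tumor-free mice. Dlx3 took 19.4% (13.0 to 27.3%) and 15.1% (8.88 to 23.4%). For Dlx5 the shares were 7.75% (3.78 to 13.8%) and 6.6% (2.70 to 13.1%), and for Sp7 2.33% (0.482 to 6.65%) and 0.943% (0.0239 to 5.14%). These intervals pool the counts of several mice and cover counting error only, and the difference in shares between the groups was not tested. There were 43.25 Runx2 counts per Sp7 count (95% interval 16.6 to 160.5) and 4.22 per Dlx3 count (2.99 to 6.09), and 2.41 Dlx3 counts per Dlx5 count (1.34 to 4.53).

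None of the 4 factors passed a test between tumor-bearing and tumor-free mice, and for each the groups overlapped. Runx2 alone had enough counts for edgeR's quasi-likelihood test with age as a factor, and Sp7, Dlx3 and Dlx5 were compared by a permutation test of mean CPM with no age term. The edgeR test called 0 of 2495 genes tested (0%) at an adjusted p under 0.05, and 67 of them (2.69%) had an unadjusted p under 0.05, 42 lower (1.68%) and 25 higher (1%) with a tumor. DESeq2 and limma voom also called 0 genes. At an unadjusted p under 0.05 DESeq2 had 98 of 13344 genes fitted, with no filter before the fit, and limma voom 98 of 2495. Groups did not overlap for 88 genes (3.53%), 33 lower (1.32%) and 55 higher (2.2%) with a tumor, against 0 of the 4 factors.

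With a tumor Runx2 averaged 171 ± 58.2 CPM (SD, n = 4), and without one 243 ± 84.4 CPM (SD, n = 3). The log2 fold change was -0.43 (SE 0.37, 95% interval -1.30 to 0.43), with edgeR's adjusted p = 0.990 and an unadjusted p of 0.280. On the linear scale the interval runs from 0.406 to 1.35 times the tumor-free level, so the data leave room for a decrease of more than 2-fold and for a modest increase. The difference rested mostly on tumor-free replicate 1: without it the log2 fold change was -0.05 (edgeR's adjusted p = 0.998), and without the 2 younger mice it was -0.77 (edgeR's adjusted p = 0.996). In a bulk sample of sorted cells, fewer cells of a type and less RNA per cell cannot be told apart.

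**Figure D3:**
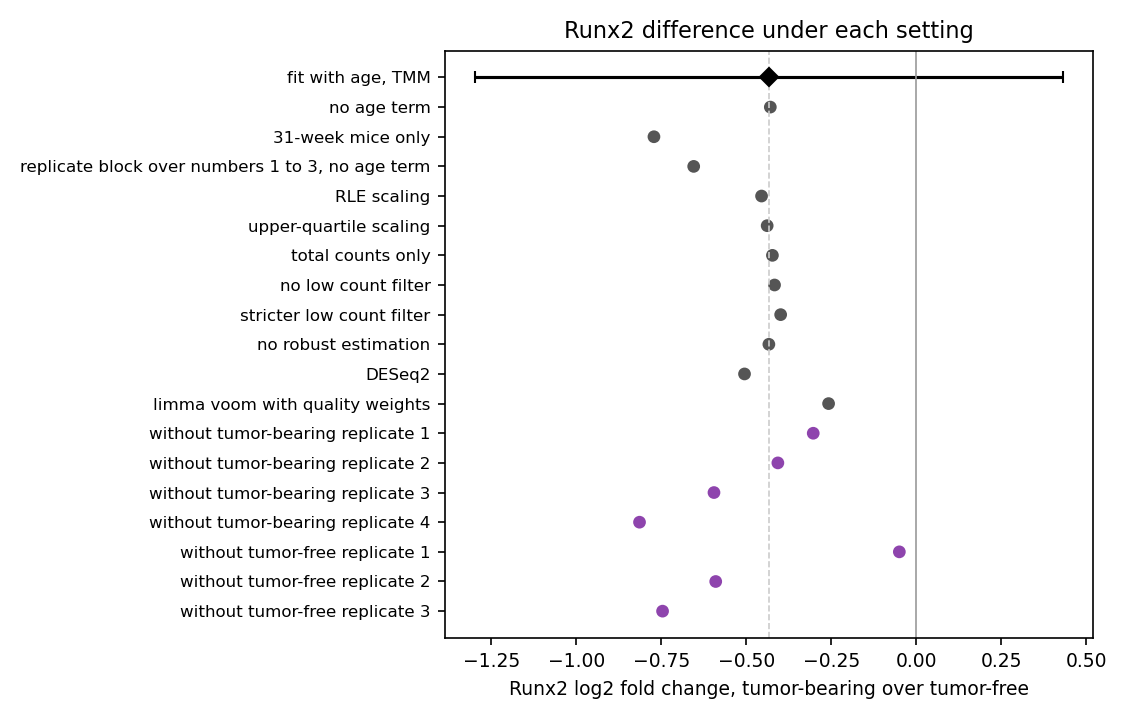
Log2 fold change of Runx2, tumor-bearing over tumor-free, in the fit with age (black diamond, bar for the 95% interval) and under each alternative (grey for other settings, purple for 1 library left out). All values lie below 0, from -0.81 without tumor-bearing replicate 4 to -0.05 without tumor-free replicate 1, and all lie inside the interval.

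For the other 3 factors the mean CPM was compared by a two-sided exact permutation test over the 35 ways of dividing 7 libraries into 4 and 3, with a smallest possible p of 0.0286. Dlx3 averaged 44.5 ± 31.0 CPM with a tumor (SD, n = 4) and 46.5 ± 3.50 CPM without (SD, n = 3; exact permutation p = 1). Dlx5 averaged 20.02 ± 10.3 CPM (SD, n = 4) and 19.4 ± 17.5 CPM (SD, n = 3; exact permutation p = 0.886). Sp7 averaged 4.51 ± 5.52 CPM (SD, n = 4) and 2.69 ± 4.65 CPM (SD, n = 3; exact permutation p = 0.8286). A fit over all 13344 genes with a count, with no filter, gave log2 fold changes of 0.05 for Dlx3 (95% interval -1.14 to 1.24), 0.09 for Dlx5 (-1.64 to 1.82) and 0.98 for Sp7 (-2.32 to 4.28), with edgeR's adjusted p of 0.981, 0.974 and 0.844. Changes of 2-fold in either direction lie inside each of these intervals.

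Osteoblast genes were counted unevenly beside the factors, with the reporter's own gene nearly uncounted. Of 12 osteoblast markers 8 were counted in every library, and Bglap, the osteocalcin gene, had 0 to 2 counts. The summed osteoblast markers ranged from 1118 to 1742 CPM with a tumor and from 1515 to 2412 CPM without. Col1a1 (305 counts), Sparc (278), Pth1r (164), Col1a2 (156), Ibsp (147) and Phex (127) held most of the osteoblast counts. Spp1 had 32 counts and Alpl 21, and Ifitm5 was at 0 in all. Chondrocytes, the cartilage cells, also use Runx2 when they enlarge. Their 14 markers summed to 1577 to 3406 CPM with a tumor and 1698 to 1813 without. Sox9 (674 counts), Sox5 (567) and Col2a1 (173) held most of these counts. Of the 14, 5 were counted in every library, and Ihh and Col10a1 were at 0 in all. Among the rest, Matn1 and Col9a2 had 1 count each, Matn3 had 4, Cnmd 9 and Col9a1 10. Marrow stromal markers summed to 1910 to 2908 and 2033 to 2402 CPM, with 5 of 11 counted in every library. Lpl (1111 counts) and Lepr (598) held most of these counts, while Cxcl12 had 12, Pdgfra 14 and Kitl 8. Leukocyte markers summed to 388 to 443 and 382 to 435 CPM, with 8 of 15 genes at 0 throughout. Itgam (218) and Csf1r (114) held most of the leukocyte counts, and Ptprc, the gene of CD45, had 3. Osteocyte markers summed to 336 to 464 and 492 to 552 CPM, and endothelial markers to 0 to 2 counts in each group with 5 of 8 at 0. Erythroid markers, among them the haemoglobin genes, summed to 75.0 to 123 CPM with a tumor and 127 to 195 CPM without, at 9 to 16 and 15 to 20 counts per library. The erythroid and the osteocyte sums did not overlap between the groups and were lower with a tumor, and differences in sums were not tested. Among single genes tested, groups did not overlap for 3.53%, and 1.32% were lower with a tumor. Pdpn (170 counts), Phex (127, also an osteoblast marker) and Dkk1 (63) held most of the osteocyte counts, with Dmp1 at 3 and Sost and Mepe at 1 each. Of 3 osteocyte markers tested, 1 did not overlap by itself. The part of these cell types in the counts of the 4 factors was not tested.

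The families of the factors were counted as unevenly as the factors themselves. Of 16 other RUNX, SP and DLX genes and their direct partners, 6 were counted in every library, 3 were at 0 in all (Dlx4, Sp5 and Sp6) and 5 were tested. Of those tested 0 passed, 3 lay above 0 and 2 below, with a median log2 fold change of 0.08, against 0.04 over all 2495 genes tested. Runx3, better known from T cells and cartilage, had 171 counts, close to the 173 of Runx2, and a mean level of 39.9 ± 17.6 CPM per kilobase (SD, n = 7). Runx1, the blood stem cell factor, had 100 counts and 9.70 ± 3.54 CPM per kilobase (SD, n = 7). Cbfb, the subunit with which all RUNX proteins bind DNA, had 4 counts, all in tumor-bearing replicate 3. Differences between the levels of these genes were not tested.

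Among the SP genes, the close relative of Sp7 that is known from limb outgrowth, Sp8, was the most counted, with 19 to 131 counts per library and 83.0 ± 41.8 CPM per kilobase (SD, n = 7). Sp9, which acts with Sp8 in the limb ridge, had 8 to 15 counts and 18.7 ± 4.10 CPM per kilobase. The broadly used Sp3 had 6 to 24 counts and 25.2 ± 11.6 CPM per kilobase, and Sp1 had 24 counts in all. Of the DLX genes, Dlx6, the neighbour of Dlx5, had 5 counts and its antisense transcript Dlx6os1 46, with 5 to 9 in every library. Dlx1 had 2 counts and Dlx2 had 1. The tumor difference was 0.12 (SE 0.45) on the log2 scale for Runx3, -0.08 (SE 0.40) for Runx1, -0.41 (SE 0.42) for Sp3, 0.24 (SE 0.32) for Sp9 and 0.08 (SE 0.45) for Sp8, each with edgeR's adjusted p = 0.990. For Runx3 the log2 fold change was 0.78 without tumor-bearing replicate 4 and 0.84 without tumor-free replicate 3. The sign for Runx3 turned with no age term and that for Runx1 in 31-week mice alone.

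**Figure D4:**
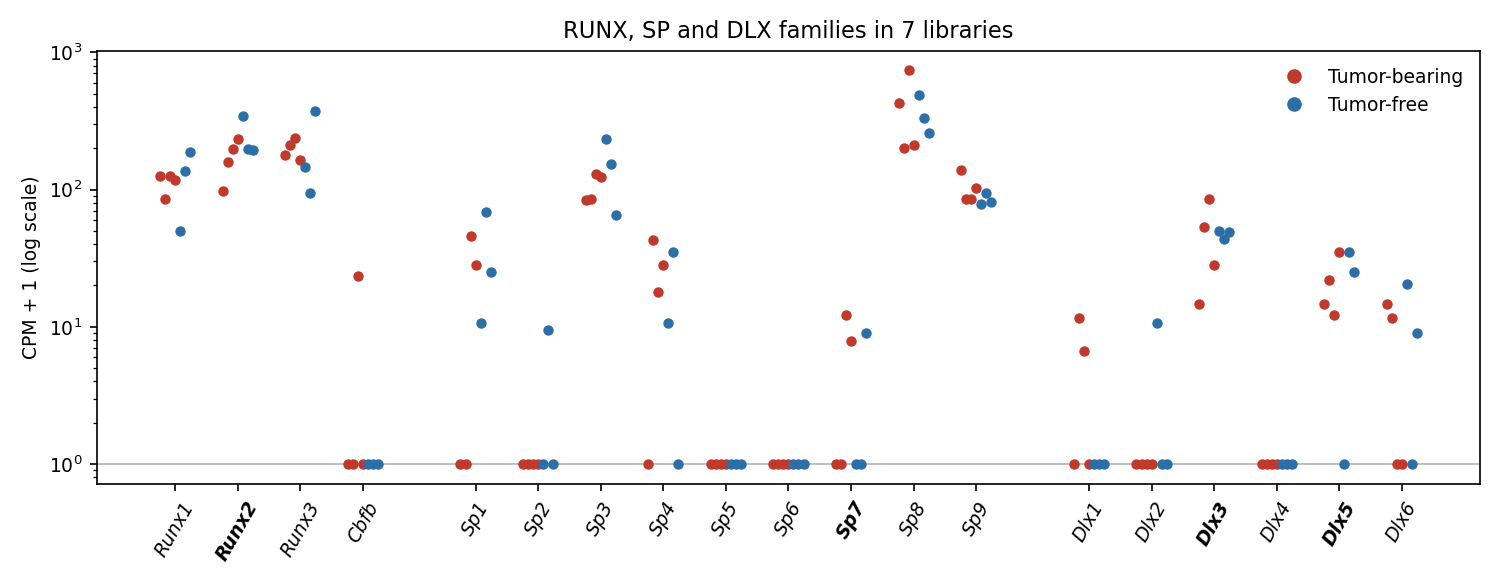
CPM + 1 on a log scale of RUNX, SP and DLX genes in the 7 libraries, red for tumor-bearing and blue for tumor-free mice; points on the grey line are libraries with 0 counts, and the factors described here are in bold. Sp8 is the highest in its family and Sp7 lies among the lowest, while Runx1, Runx2 and Runx3 are counted in every library.

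Other transcription factors with a known part in osteoblasts gave a scale for the 4. Over 74 listed factors, families included, 60 had at least 1 count, and by mean CPM Runx2 took place 10, Dlx3 place 28, Dlx5 place 37 and Sp7 place 50. Per kilobase the places were 16, 18, 26 and 49. Tcf7l2, an effector of Wnt signalling, had most counts (858), followed by Sox9, the chondrocyte and progenitor factor (674), and Sox11 (631). Msx2, a homeodomain factor that opposes Dlx5, had 72 counts and 26.9 ± 10.96 CPM per kilobase (SD, n = 7). Twist1 and Twist2, which hold Runx2 inactive in progenitors, were at 0 in every library.

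Of 55 such factors outside the families, 25 were counted in every library, 11 were at 0 in all and 13 were tested. None passed, 5 lay above 0 and 8 below, and the median log2 fold change was -0.11. Fos, the immediate early partner of Jun, had 0, 6, 18 and 13 counts with a tumor and 11, 17 and 40 without. It averaged 63.2 ± 45.0 CPM (SD, n = 4) against 191 ± 115 CPM (SD, n = 3), and it was the only one of the 13 with an unadjusted p under 0.05 and the only one whose groups did not overlap (log2 fold change -1.28, SE 0.54, edgeR's adjusted p = 0.990). Over all 2495 genes tested, 2.69% had an unadjusted p under 0.05 by edgeR, and groups did not overlap for 3.53%. Ets1 (-0.96, SE 0.42), Gli3, the Hedgehog effector (0.81, SE 0.50), and Foxo1 (-0.78, SE 0.60) came next by p, with edgeR's adjusted p = 0.990 for each. Tumor-free replicate 2 weighed on all 3, and without it the log2 fold changes were -0.27 for Ets1, 1.64 for Gli3 and -0.12 for Foxo1 (edgeR's adjusted p = 0.997 for each). Without tumor-bearing replicate 3 that of Fos was -1.87 (edgeR's adjusted p = 0.948).

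Genes whose products act on Runx2 protein or with it were sparse. Of 42 such regulators, 11 were counted in every library, 7 were at 0 in all and 5 were tested, 4 of them above 0 and 1 below, with a median log2 fold change of 0.39 and 0 passing. Kat6a, a histone acetyltransferase that works with RUNX factors, had 103, 6, 15 and 241 counts in tumor-bearing and 10, 20 and 19 in tumor-free mice. Tumor-bearing replicates 1 and 4 stood above all other libraries, and replicates 2 and 3 stood below the tumor-free libraries in CPM (log2 fold change 2.38, SE 1.15, edgeR's adjusted p = 0.990). Zfp423, Hdac5 and Wwtr1, which encodes the coactivator TAZ, followed by p with log2 fold changes of -0.62 (SE 0.42), 0.39 (SE 0.33) and 0.40 (SE 0.41). Without tumor-bearing replicate 1 the log2 fold change of Kat6a was 1.15, without tumor-bearing replicate 4 it was 1.76 and without tumor-free replicate 3 it was 1.78. That of Zfp423 was -1.33 without tumor-bearing replicate 4 and -1.28 without tumor-free replicate 3. Snai2, with 122 counts, was the third most counted after Kat6a (414) and Wwtr1 (127).

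Genes that Runx2 or Sp7 are known to activate were also unevenly counted. Of 32 such targets, 12 were counted in every library, 7 were at 0 in all and 9 were tested, 4 above 0 and 5 below, with a median log2 fold change of -0.33 and 0 passing. Col1a1, a chain of type I collagen, had 41, 25, 23 and 30 counts with a tumor and 96, 46 and 44 without (log2 fold change -1.06, SE 0.52, edgeR's adjusted p = 0.990). In tumor-bearing replicates 3 and 4 Runx2, with 35 and 34 counts, was counted more often than Col1a1. Col1a2 (log2 fold change -0.53, SE 0.31) and the matrix protein gene Sparc (-0.47, SE 0.43) also lay below 0. Phex, an endopeptidase of mineralising cells, had 5, 14, 27 and 22 counts with a tumor and 17, 20 and 22 without, and its CPM did not overlap between the groups (129 ± 40.6, SD, n = 4, against 171 ± 6.03, SD, n = 3; log2 fold change -0.33, SE 0.30, edgeR's adjusted p = 0.990). Groups did not overlap for 3.53% of all genes tested. The neighbouring related genes Bglap, Bglap2 and Bglap3, between which reads could be split, had 8, 5 and 4 counts over all libraries.

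Upstream signals of the factors were represented by few genes. Of 27 ligands and receptors of the bone morphogenetic protein, Wnt, Hedgehog, fibroblast growth factor, insulin-like growth factor and parathyroid hormone pathways, 6 were counted in every library, 9 were at 0 in all and 4 were tested, 1 above 0 and 3 below, with a median log2 fold change of -0.44 and 0 passing. Bmp4, a ligand that induces Dlx5, had 5, 18, 19 and 18 counts with a tumor and 12, 14 and 15 without (log2 fold change 0.05, SE 0.35, edgeR's adjusted p = 0.994). Pth1r, the parathyroid hormone receptor, was the only one of the 4 whose groups did not overlap, being lower with a tumor (log2 fold change -0.52, SE 0.24, edgeR's adjusted p = 0.990). Over all genes tested, groups did not overlap for 3.53%. Igf1 (-0.45, SE 0.34) and its receptor Igf1r (-0.44, SE 0.39) lay on the same side. For Igf1r the log2 fold change was -1.10 without tumor-bearing replicate 4 and -1.05 without tumor-free replicate 3.

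The genes whose log2 CPM ran most like that of Runx2 over the 7 libraries were not bone matrix genes. They were Rffl (Pearson r 0.98, Spearman 0.89), a ubiquitin ligase gene, Tsc22d2 (0.97 and 0.96), Fam3c (0.97 and 0.89), Glt8d1 (0.96 and 0.75) and Actn2 (0.95 and 0.96), which encodes a muscle actinin. These are the 5 highest of 2495 genes tested over only 7 points that share libraries and depth, and are given as a description. For Col1a1 r was 0.14, for Col1a2 0.24, for Ibsp 0.41, for Sparc -0.11 and for Pth1r 0.60.

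Runx2 also differs from the other 3 in sequence features that bear on counting. Its longest annotated transcript has 1 stretch of at least 11 A in 12 bases outside the last 100 bases, which lies 860 bases from the 3′ end, and Sp7, Dlx3 and Dlx5 have none; 11.4% of 55341 gene symbols have such a stretch. Of its 25-base words, 10.6% (680) occur in transcripts of another gene, most of them in antisense transcripts of the locus, and 185 remain when those are left out. The antisense gene Runx2os1 overlaps 519 of its exon bases. No source used here gives the strand setting of the counting, so reads from Runx2 and its antisense partner cannot be told apart. Sp7, Dlx3 and Dlx5 share 12, 12 and 9 such words with other genes and have no overlapping gene in the annotation. The longest identical run between Dlx3 and Dlx5 is 23 bases, and 12 to 16 bases between the other pairs of factors. The part of these features in the level of Runx2 was not tested.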

How the data were processed

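Sorted cells, 2000 from each mouse, went into Trizol, and 3′ end libraries with unique molecular identifiers were made by a custom CelSeq method, per the labels' protocols. TopHat2 2.0.10, SAMtools and mm10 are named in the submitters' processing notes. No source used here gives the counting program, its annotation, its strand setting or the handling of identifiers. The values the authors deposited are raw whole-number counts for Entrez gene IDs. A RefSeq table (GRCm38.p6) named 23666 of 23725 IDs. Each library is a separate mouse.

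The members and gene lists were chosen with earlier results of these data known. In R 4.3.3, edgeR 4.0.16 kept 2495 genes (filterByExpr, minimum count 10 and total 15) with 84.2% to 87.8% of the counts, scaled libraries by TMM (factors 0.945 to 1.05) and tested tumor-bearing against tumor-free mice by glmQLFit (robust) and glmQLFTest, with age as a factor of 2 levels and Benjamini-Hochberg adjustment at 0.05. The fit was also run on data simulated for the genes it kept, with the same dispersion for every gene, unlike the data. That run did not cover Sp7, Dlx3 and Dlx5. CPM use TMM-scaled totals, except the pooled levels and the ranks among all genes with a count, which use unscaled totals. Exon lengths and transcripts came from GENCODE vM21, and gene coordinates and promoters from RefSeq. Named from each list were up to 4 tested genes with the smallest p and up to 3 with the highest mean count, beside the members and the 5 genes most like Runx2 (r of log2 CPM, prior count 2). Msx2, Twist1, Twist2, the less counted family members, Ibsp, Bglap and the marker genes were named after their values were seen. Results were recomputed without the age term, in 31-week mice, with a replicate block, with DESeq2 1.42.0 and with voom and quality weights (limma 3.58.1), under RLE, upper-quartile and total-count scaling, without a filter and with 30 counts required in at least 3 libraries, without robust estimation, on other length scales and with each library left out.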

Additional observations from a re-analysis of the deposited data

Results flagged for a closer look

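In the tumor-bearing group of 4, the highest or lowest library of 29 genes named above was set against the rest by Dixon's ratio, which chance passes in about 1 of 20 groups, and 4 genes stood out. Tumor-bearing replicate 2 had 1745 CPM of Sox9, against 562 to 737 CPM in the other 3 libraries. The same library had 1472 CPM of Sox11, against 507 to 573 CPM. Tumor-bearing replicate 4 had 164 CPM of Zfp423, against 63.1 to 78.7 CPM. Tumor-bearing replicate 1 had 68.6 CPM of Phex, against 147 to 152 CPM. None of Runx2, Sp7, Dlx3 and Dlx5 stood out in this way.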

How the results depend on the processing

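Depth and the number of mice both limit these results. Sp7, Dlx3 and Dlx5 had too few counts for the filtered fit. Their permutation test has no age term, so that the setting without one is the value already given, and limma voom, the stricter filter and no robust estimation were not run for them. The number of genes called was 0 under all 18 alternatives (lowest adjusted p = 0.0693, with no filter). Genes at an unadjusted p under 0.05 numbered 37 of 2281 with the block, 456 of 13344 with no filter and 32 of 1159 with the stricter filter, against 67 of 2495. With 1 library left out they numbered 61 to 121, being 111 of 2425 without tumor-bearing replicate 2 and 121 of 2688 without tumor-free replicate 1. The number of genes tested differed between these settings.

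Runx2 kept its sign under all 18, from -0.81 to -0.05 with 1 library left out and from -0.77 to -0.26 under the other settings, and passed under none. Differences in mean CPM changed sign for Sp7 with 1 library left out (-0.41 to 4.51 CPM). For Dlx3 they did so in 31-week mice (4.64 CPM), with the block (3.70 CPM) and with 1 library left out (-15.3 to 8.23 CPM). For Dlx5 they did so in 31-week mice (-1.65 CPM), with the block (-4.05 CPM) and with 1 library left out (-9.04 to 7.93 CPM). The unfiltered edgeR fit, another measure with an age term, gave Dlx3 a log2 fold change of 0.047. Its difference in mean CPM was -2.02. Log2 fold changes changed sign for Runx3 with no age term (-0.053) and with 1 library left out (-0.28 to 0.84), for Runx1 in 31-week mice (0.23) and with 1 library left out (-0.44 to 0.25), and for Bmp4 with the block (-0.050) and with 1 library left out (-0.23 to 0.15). The cause was not tested.

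The study matched mice for age, sex and litter, and the replicate numbers were not used as pairs. In their deviations from group means, same-numbered libraries had correlations of -0.21, -0.12 and -0.15, and 0 of 6 correlated best with their own number. Number 3 joins a 31-week with a 23-week mouse. The 23-week mice, tumor-bearing replicate 4 and tumor-free replicate 3, carry different numbers, so these correlations do not include them as a pair. With so few libraries the values cannot show which mice were matched. With numbers 1 to 3 as a replicate block, without tumor-bearing replicate 4 and the age term, Runx2 had a log2 fold change of -0.65 (edgeR's adjusted p = 0.9997) and 0 genes were called.

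Between factors, Runx2 minus Dlx3 passed in CPM (156.3) and per longest transcript (13.8 CPM per kilobase), and Sp7 minus Dlx5 did not pass in CPM (-16.0). With 1 library left out, in CPM per kilobase, the ranges were 18.9 to 23.5 for Runx2 minus Sp7, 10.02 to 15.6 for Runx2 minus Dlx5, -18.1 to -14.2 for Sp7 minus Dlx3 and -8.90 to -6.40 for Sp7 minus Dlx5, with signs kept.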

Other observations

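A few genes listed beside the factors had most of their counts in 1 or 2 libraries, and were singled out after their values were seen. Vdr, the vitamin D receptor, had 68 counts in tumor-bearing replicate 3 and 0 to 4 in each other library. Msx1, a homeodomain factor, had 35 counts in tumor-free replicate 2, 13 in tumor-bearing replicate 1 and 1 to 7 in the others. Col2a1, the cartilage collagen, had 92 counts in tumor-bearing replicate 2 and 37 in replicate 3, against 1 and 3 in the other tumor-bearing libraries and 10 to 19 in the tumor-free ones. Fgf18 had 5 counts, all in tumor-bearing replicate 1. Lepr and Lpl, stromal markers, were even by comparison, with 58 to 123 and 124 to 203 counts per library.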
